A study of Mus musculus with 79 samples.

Results

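De novo lipogenesis makes fatty acids from carbohydrate-derived acetyl-CoA, and 10 of its genes were followed across the bones and fat of mice given leptin into the brain. The 10 genes were *Fasn*, *Acaca*, *Acacb*, *Acly*, *Scd1*, *Scd2*, *Elovl6*, *Srebf1*, *Mlxipl* and *Me1*, taken by gene symbol from tables of 39063 genes with a numeric gene identifier. All 10 were among the 14873 genes tested, which were those with a mean of at least 0.4 TPM (transcript abundance scaled for length and library size) over all libraries. The RNA sequencing covered 79 libraries from 51 mice, 18 females and 33 males. It asked how leptin in the brain changes gene expression in caudal vertebrae (CV), tail bones filled with constitutive bone marrow adipose tissue (cBMAT), a fat store that ordinarily resists lipid release.

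By the series description mice were 4 to 5 months old. Other parts of the study's text reach higher ages, among them the legend for its males with insulin pellets. The mice received intracerebroventricular (ICV) leptin at 100 ng per h, or ICV PBS with food matched to the leptin mice, for 9 days. WT mice were BMAd-*Pnpla2*+/+ littermates. The cKO mice were BMAd-*Pnpla2*-/-, in which ATGL, the first lipase of triglyceride breakdown and the product of *Pnpla2*, was removed in bone marrow adipocytes alone. All of them, WT and cKO, were of a mixed SJLxC57BL6 background. CV came from 5 PBS and 5 leptin WT females, 4 and 4 cKO females, 5 PBS and 8 leptin WT males, and 5 PBS and 4 leptin cKO males. A further 5 PBS and 6 leptin WT males carried a subcutaneous insulin pellet for the same 9 days. Lumbar vertebrae (LV, bone with little marrow fat) came from the same WT and cKO females, and inguinal white adipose tissue (iWAT, a responsive fat depot) from the same 10 WT females. Each library was 1 tissue of 1 mouse.

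Acetyl-CoA for this pathway leaves the mitochondrion as citrate and is released in the cytosol by ATP citrate lyase (*Acly*), and malic enzyme (*Me1*) supplies NADPH. Acetyl-CoA carboxylases (*Acaca* in the cytosol, *Acacb* at the mitochondrial surface, where its malonyl-CoA restrains fatty acid oxidation) make malonyl-CoA, which fatty acid synthase (*Fasn*) builds into palmitate, ELOVL6 lengthens the product and the stearoyl-CoA desaturases (*Scd1*, *Scd2*) add a double bond. The genes are switched on by SREBP-1 (*Srebf1*), which responds to insulin, and by ChREBP (*Mlxipl*), which responds to glucose, and white adipose tissue is one of the main sites of the pathway in mice.

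Libraries held 16100377 to 19364106 counts in 51 CV samples, 28717516 to 29757254 in 18 LV samples and 17638318 to 19100698 in 10 iWAT samples. The Y-linked *Ddx3y* was at 0 to 0.01 TPM in 46 libraries labelled female and at 22.3 to 38.0 TPM in 33 labelled male. *Pnpla2* in cKO CV with PBS stood at 71.4% of WT in females and 68.9% in males, a difference that missed the threshold in whole CV (edgeR adjusted p = 0.841 and 0.948). The summed TPM of 10 adipocyte markers ran from 8913 to 12620 in CV of PBS WT females, 295 to 567 in LV and 66480 to 85470 in iWAT. A gene was called changed where the quasi-likelihood test of edgeR gave a p under 0.05 after Benjamini-Hochberg adjustment over 14873 genes (edgeR adjusted p) and the log2 fold change was 0.5 or more in size.

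RefSeq promoters on GRCm38.p6 were found for 8 of the 10 genes, in 12 windows of 250 bases before an annotated start. The windows below are a selection from 6 of these 8 genes, covering acetyl-CoA and NADPH supply, carboxylation, synthesis, elongation and control. Those of *Acacb* and *Srebf1* are not printed. Capitals mark the motifs searched on both strands: CACGTG (the E-box), TCACNCCAC (a sterol response element-like motif), CCAAT and GGGCGG (the GC box).
Acly: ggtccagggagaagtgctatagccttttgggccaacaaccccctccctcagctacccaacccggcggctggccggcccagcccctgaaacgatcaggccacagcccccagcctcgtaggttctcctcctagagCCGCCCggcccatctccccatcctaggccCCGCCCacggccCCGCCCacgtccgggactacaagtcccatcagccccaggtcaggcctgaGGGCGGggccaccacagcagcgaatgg
Me1: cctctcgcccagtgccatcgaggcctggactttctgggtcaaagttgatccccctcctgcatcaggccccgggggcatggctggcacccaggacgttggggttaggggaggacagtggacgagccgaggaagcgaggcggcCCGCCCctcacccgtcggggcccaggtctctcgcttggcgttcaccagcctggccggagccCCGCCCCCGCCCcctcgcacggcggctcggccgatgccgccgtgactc
Acaca: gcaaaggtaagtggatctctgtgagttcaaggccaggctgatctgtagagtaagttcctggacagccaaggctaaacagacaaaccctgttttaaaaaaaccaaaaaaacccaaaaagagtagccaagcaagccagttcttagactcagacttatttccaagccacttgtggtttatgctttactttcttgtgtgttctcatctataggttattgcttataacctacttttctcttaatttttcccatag
Fasn: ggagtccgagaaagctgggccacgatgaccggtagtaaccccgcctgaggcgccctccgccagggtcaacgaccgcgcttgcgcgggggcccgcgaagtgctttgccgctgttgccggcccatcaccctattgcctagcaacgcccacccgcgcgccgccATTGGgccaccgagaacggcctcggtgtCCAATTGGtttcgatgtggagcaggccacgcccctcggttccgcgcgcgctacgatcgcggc
Elovl6: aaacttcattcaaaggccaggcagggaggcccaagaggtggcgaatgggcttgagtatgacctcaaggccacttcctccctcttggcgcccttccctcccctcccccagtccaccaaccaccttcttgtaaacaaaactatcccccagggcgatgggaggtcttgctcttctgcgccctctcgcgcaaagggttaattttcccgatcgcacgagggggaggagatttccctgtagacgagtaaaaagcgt
Mlxipl: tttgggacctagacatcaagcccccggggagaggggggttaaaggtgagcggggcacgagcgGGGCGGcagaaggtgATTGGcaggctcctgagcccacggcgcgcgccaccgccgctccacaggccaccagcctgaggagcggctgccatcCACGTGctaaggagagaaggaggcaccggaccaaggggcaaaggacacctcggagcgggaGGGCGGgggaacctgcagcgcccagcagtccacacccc
The windows lie at chr11:100528001-100528250 (*Acly*, minus strand), chr9:86695915-86696164 (*Me1*, minus, 1 of 2 annotated starts), chr11:84195188-84195437 (*Acaca*, plus), chr11:120824548-120824797 (*Fasn*, minus), chr3:129532136-129532385 (*Elovl6*, plus) and chr5:135089640-135089889 (*Mlxipl*, plus, 1 of 2 starts). *Fasn* held CCAAT 3 times, at -90, -62 and -59 from its start, the last pair overlapping. *Acly* held the GC box 4 times and this *Me1* window 3 times. *Mlxipl* held CACGTG at -98 to -93, and the sterol response element-like motif was found in 1 window, that of the other *Mlxipl* start, at -136 to -128. No searched motif was in the *Acaca* or *Elovl6* window, and the start the *Acaca* window belongs to may not be the one used in these tissues. Of 32851 promoter windows of the same length, CACGTG was in 6.02%, TCACNCCAC in 1.05%, CCAAT in 33.8% and GGGCGG in 32.7%, so CCAAT and the GC box, in 6 and 5 of the 12 member windows, are common letters. A match is a description of sequence and no evidence of binding.

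In PBS-treated WT females the pathway was far more abundant in iWAT than in CV, and more abundant in CV than in LV. *Scd1*, the desaturase that makes oleate and palmitoleate, was the most abundant member in fat and in CV. Its levels were 20007, 17009.9, 14801, 22337 and 24302 TPM in iWAT, 4102, 5709, 3688, 3319 and 4454 TPM in CV and 26.9, 43.3, 23.3, 32.1 and 62.3 TPM in LV, so the tissues did not overlap. *Scd1* alone made up 89.7% of the summed TPM of the 10 genes in CV, 69.8% in iWAT and 30.2% in LV. All 10 genes were called higher in iWAT than in LV (34.2% of all genes tested were), by a log2 fold change of 2.72 for *Scd2* to 8.10 for *Scd1*. All 10 were called lower in CV than in iWAT (25.2% of all genes tested), and 9 of the 10 did not overlap (22.0% of genes).

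The gap between CV and iWAT was not the same for each step. *Scd1* in CV stood at 21.6% of its iWAT TPM and *Srebf1* at 34.2%, whereas *Fasn* stood at 3.30%, *Acly* at 4.13%, *Me1* at 3.10% and *Elovl6*, the elongase from palmitate to stearate, at 1.15%. On the log2 scale the lower level in CV ran from -1.23 ± 0.262 SE on the log2 scale (edgeR adjusted p = 0.000559) for *Scd2* to -6.61 ± 0.197 SE on the log2 scale (edgeR adjusted p = 3.76e-13) for *Elovl6*. *Elovl6* in CV was in fact close to its level in LV, 3.92 ± 1.01 TPM (SD, n = 5) against 2.15 ± 0.306 TPM (SD, n = 5).

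Against LV, 8 of the 10 genes were called higher in CV (34.7% of all genes tested were). The highest were *Scd1* (log2 fold change 5.71), *Mlxipl* (3.72), *Acacb* (3.04) and *Fasn* (2.71). *Acly* and *Elovl6* were not called (-0.20 ± 0.134 SE on the log2 scale (edgeR adjusted p = 0.169) and -0.23 ± 0.159 SE on the log2 scale (edgeR adjusted p = 0.188)). Their TPM was higher in every CV library than in every LV library, as for all 10 members, but so was that of 71.6% of genes, and scaling by TPM moved the median of all genes by 0.87 between these tissues. The summed TPM of 10 skeletal muscle markers also differed between the tissues of these females, with medians of 48440 in CV, 1841 in LV and 93.5 in iWAT. The part of muscle in these tissue differences was not tested. In bulk tissue, fewer cells of a type and less RNA per cell cannot be told apart.

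**Figure D1:**
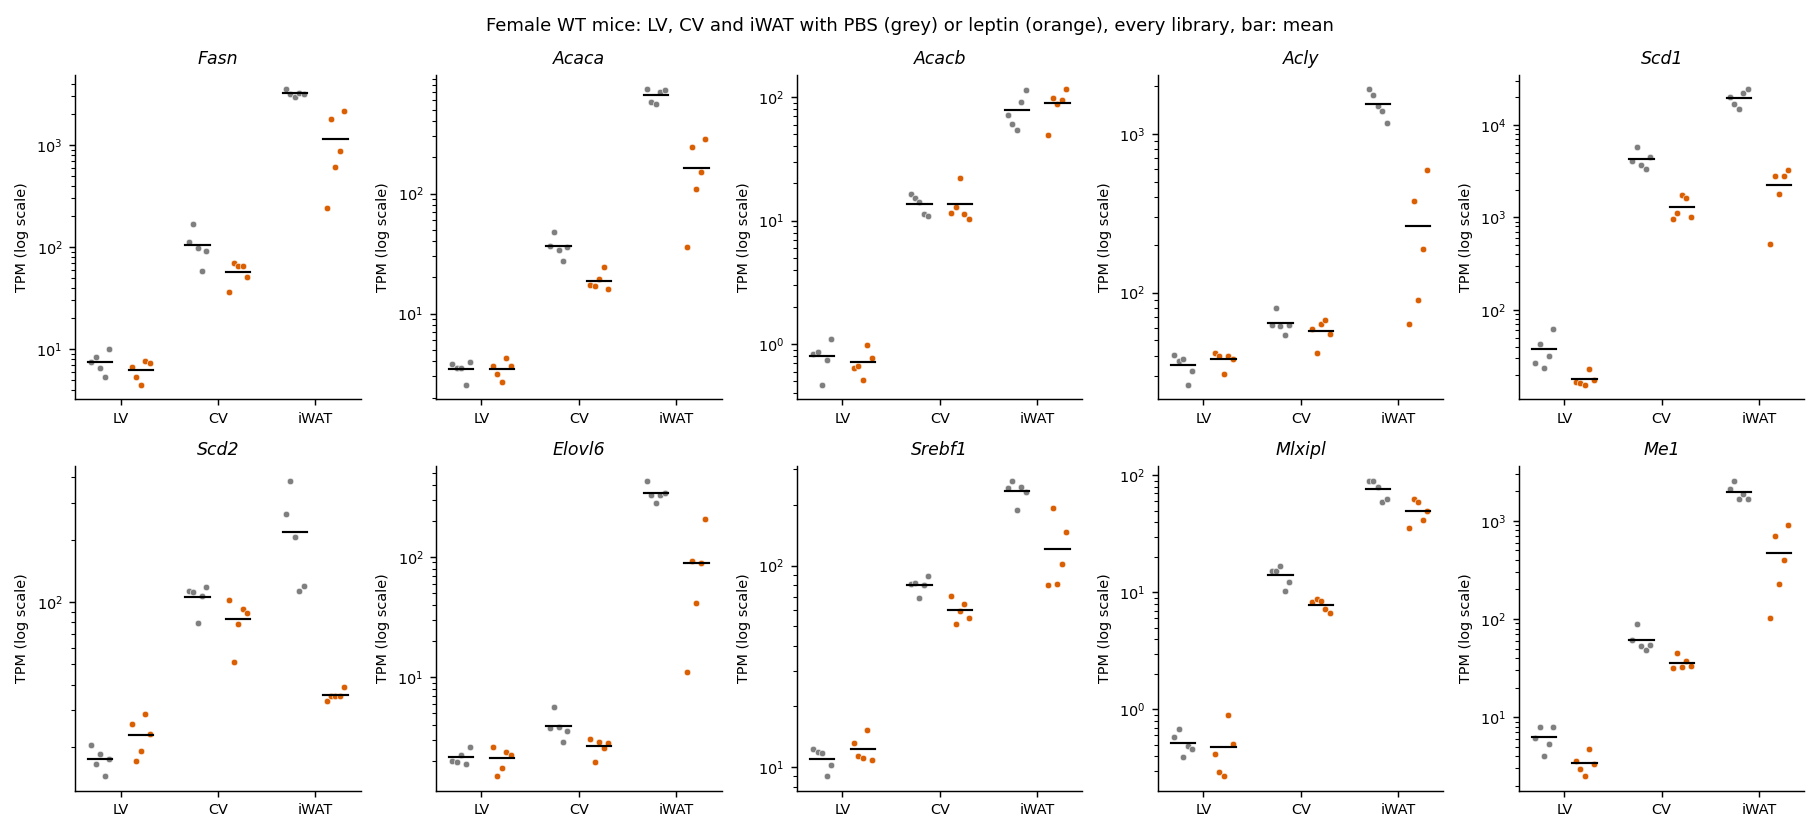
TPM of the 10 genes (log axis) in LV, CV and iWAT of WT females with PBS (grey) or leptin (orange), 1 point per library and a bar at the group mean, n = 5 per group. *Scd1* in PBS mice averaged 37.6 TPM in LV, 4255 in CV and 19690.0 in iWAT, and the iWAT leptin points lie below the PBS points for most genes but not for *Acacb*.

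ICV leptin lowered 5 of the 10 genes in CV of WT females (*Scd1*, *Acaca*, *Mlxipl*, *Me1* and *Elovl6*) against 2.25% of all genes called lower, and 4 of the 10 in WT males (*Fasn*, *Acaca*, *Scd1* and *Me1*) against 0.914%. *Acaca*, *Scd1* and *Me1* were called lower in both sexes, as were 0.572% of all genes. No member was called higher (2.78% and 0.834% of genes were). The median log2 change over the 10 genes was -0.69 (females) and -0.34 (males), beside -0.01 and 0.00 for all genes tested. In females the leptin and PBS libraries did not overlap for 4 members (2.75% of genes fell in this way) and in males for 2 (0.84%).

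At the head of the pathway the suppliers of acetyl-CoA and NADPH differed. *Acly* in CV of WT females was 62.3, 80.0, 61.5, 54.2 and 62.3 TPM with PBS and 58.9, 41.8, 63.7, 66.8 and 55.0 TPM with leptin (log2 fold change -0.20 ± 0.113 SE, edgeR adjusted p = 0.286). The ranges overlapped widely. In WT males *Acly* averaged 44.2 ± 4.80 TPM (SD, n = 5) with PBS and 42.2 ± 3.75 TPM (SD, n = 8) with leptin, and was not called (log2 fold change -0.11, edgeR adjusted p = 0.332). *Me1*, the cytosolic malic enzyme, was 61.8, 88.1, 53.1, 48.4 and 54.2 TPM in PBS females and 31.3, 45.2, 32.5, 37.6 and 33.1 TPM in leptin females. Every leptin value was below every PBS value (log2 fold change -0.77 ± 0.196 SE, edgeR adjusted p = 0.0338). The call in females was lost without any 1 of PBS replicates 1 and 2 and leptin replicates 1, 3, 4 and 5, with fold changes of -0.93 to -0.60 over all 10 omissions. In males *Me1* was 41.8, 47.8, 64.3, 49.4 and 52.3 TPM with PBS, and with leptin 31.5 at the lowest, 35.8 at the median and 44.7 TPM at the highest. Only the lowest PBS library fell within the leptin range (log2 fold change -0.54 ± 0.110 SE, edgeR adjusted p = 0.0169), and without PBS replicate 3 (-0.46) or by limma (-0.48) the change was under the fold limit.

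The cytosolic carboxylase fell in both sexes. *Acaca* was 36.8, 47.8, 34.0, 27.3 and 36.1 TPM in PBS females and 17.2, 17.0, 19.4, 24.6 and 16.0 TPM in leptin females. The groups did not overlap, and leptin stood at 51.7% of PBS (log2 fold change -0.98 ± 0.150 SE, edgeR adjusted p = 0.00519). In males it was 23.2, 19.6, 24.2, 18.6 and 26.9 TPM with PBS, and with leptin 10.5 at the lowest, 12.1 at the median and 16.3 TPM at the highest. Again no library overlapped (log2 fold change -0.85 ± 0.103 SE, edgeR adjusted p = 0.000661). The call held in each of the 10 female and 13 male fits that left out 1 library.

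The mitochondrial carboxylase was called in neither sex. *Acacb* averaged 13.6 ± 2.44 TPM (SD, n = 5) in PBS and 13.6 ± 4.81 TPM (SD, n = 5) in leptin females (log2 fold change -0.03 ± 0.205 SE, edgeR adjusted p = 0.944), where leptin replicate 3 stood at 22.1 TPM, the highest value of the group. In males *Acacb* was 10.9, 12.5, 12.7, 10.4 and 12.3 TPM with PBS, and with leptin 13.3 at the lowest, 16.1 at the median and 22.1 TPM at the highest. Every leptin male was above every PBS male, as for 1.35% of genes, and the difference passed the p threshold but not the fold limit (log2 fold change 0.45 ± 0.0988 SE, edgeR adjusted p = 0.0254).

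*Fasn*, the synthase itself, had about the same fold change in the sexes and passed in 1 of them. In females it was 111, 168.9, 98.6, 58.7 and 90.6 TPM with PBS and 36.4, 69.6, 64.8, 64.8 and 51.03 TPM with leptin, the lowest PBS library lying inside the leptin range. The difference was not called (log2 fold change -0.90 ± 0.276 SE, edgeR adjusted p = 0.0631), although without leptin replicate 2 (-1.05) or without PBS replicate 4 (-1.06) it was, as by DESeq2 (-0.89, adjusted p = 0.00886) and in 1 fit of all CV libraries (-0.90, edgeR adjusted p = 0.0460). With a score of skeletal muscle markers as a covariate the change was -0.56. In males *Fasn* was 69.1, 50.1, 70.2, 51.1 and 81.6 TPM with PBS, and with leptin 24.2 at the lowest, 32.6 at the median and 55.7 TPM at the highest. The overlap was of the lowest PBS and the highest leptin libraries only, and *Fasn* fell to 54.8% of PBS (log2 fold change -0.92 ± 0.165 SE, edgeR adjusted p = 0.00792).

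*Scd1* had the largest log2 fold change of the 10 genes in female CV. It was 4102, 5709, 3688, 3319 and 4454 TPM with PBS and 968, 1116, 1743, 1621 and 1012 TPM with leptin, the lowest PBS value standing above the highest leptin value. Leptin stood at 30.4% of PBS (log2 fold change -1.76 ± 0.200 SE, edgeR adjusted p = 0.00131). In males it was 2164, 2648, 2617, 1791 and 3221 TPM with PBS, and with leptin 1086 at the lowest, 1419 at the median and 1761 TPM at the highest. The groups again did not overlap (log2 fold change -0.85 ± 0.158 SE, edgeR adjusted p = 0.00975), and leptin stood at 57.1% of PBS. The difference between the sexes in this response was -0.87 ± 0.258 SE on the log2 scale (edgeR adjusted p = 0.337), so it was not called. No member passed the edgeR test of a sex difference in response (0.0% of all genes were called). In that test 2 members were at an unadjusted p under 0.05 (7.6% of genes were), and DESeq2 called 0 members.

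*Scd2*, the desaturase of brain and many other tissues, averaged 106 ± 15.2 TPM (SD, n = 5) in PBS and 82.8 ± 19.7 TPM (SD, n = 5) in leptin females (log2 fold change -0.39 ± 0.141 SE, edgeR adjusted p = 0.108), and 75.5 and 64.4 TPM in males (edgeR adjusted p = 0.216). *Scd1* and *Scd2* are close paralogues, and how the counting shared reads between them is not given in the sources used here. *Elovl6* was low in CV, at 3.80, 5.58, 3.83, 2.86 and 3.53 TPM in PBS and 3.03, 1.98, 2.86, 2.59 and 2.85 TPM in leptin females. Its call sat at the threshold (log2 fold change -0.60 ± 0.169 SE, edgeR adjusted p = 0.0495), and it was lost without any 1 library other than PBS replicate 4, with fold changes of -0.65 to -0.43 in those fits. It was also lost with no filter on low values (-0.59), by limma (-0.41) and with the mouse-number series as covariate (-0.52). In males *Elovl6* was not called (-0.26, edgeR adjusted p = 0.259).

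Of the transcription factors, *Mlxipl* was 15.1, 15.3, 17.0, 10.3 and 12.3 TPM in PBS and 8.20, 8.70, 8.41, 7.27 and 6.61 TPM in leptin females. No library overlapped (log2 fold change -0.83 ± 0.157 SE, edgeR adjusted p = 0.0125). In males it went from 11.4, 10.8, 11.1, 9.45 and 10.7 TPM with PBS to, with leptin, 6.29 at the lowest, 8.36 at the median and 10.7 TPM at the highest. The change was under the fold limit (log2 fold change -0.41 ± 0.0991 SE, edgeR adjusted p = 0.0369). *Srebf1* was 81.1, 82.2, 69.2, 80.0 and 89.0 TPM in PBS and 70.9, 51.03, 59.3, 64.7 and 55.0 TPM in leptin females, again under the fold limit (log2 fold change -0.44 ± 0.0794 SE, edgeR adjusted p = 0.0105), and in males it was 57.3 against 51.4 TPM (edgeR adjusted p = 0.471). Counts per gene do not separate the 1a and 1c transcripts of *Srebf1* or the alpha and beta transcripts of *Mlxipl*.

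**Figure D2:**
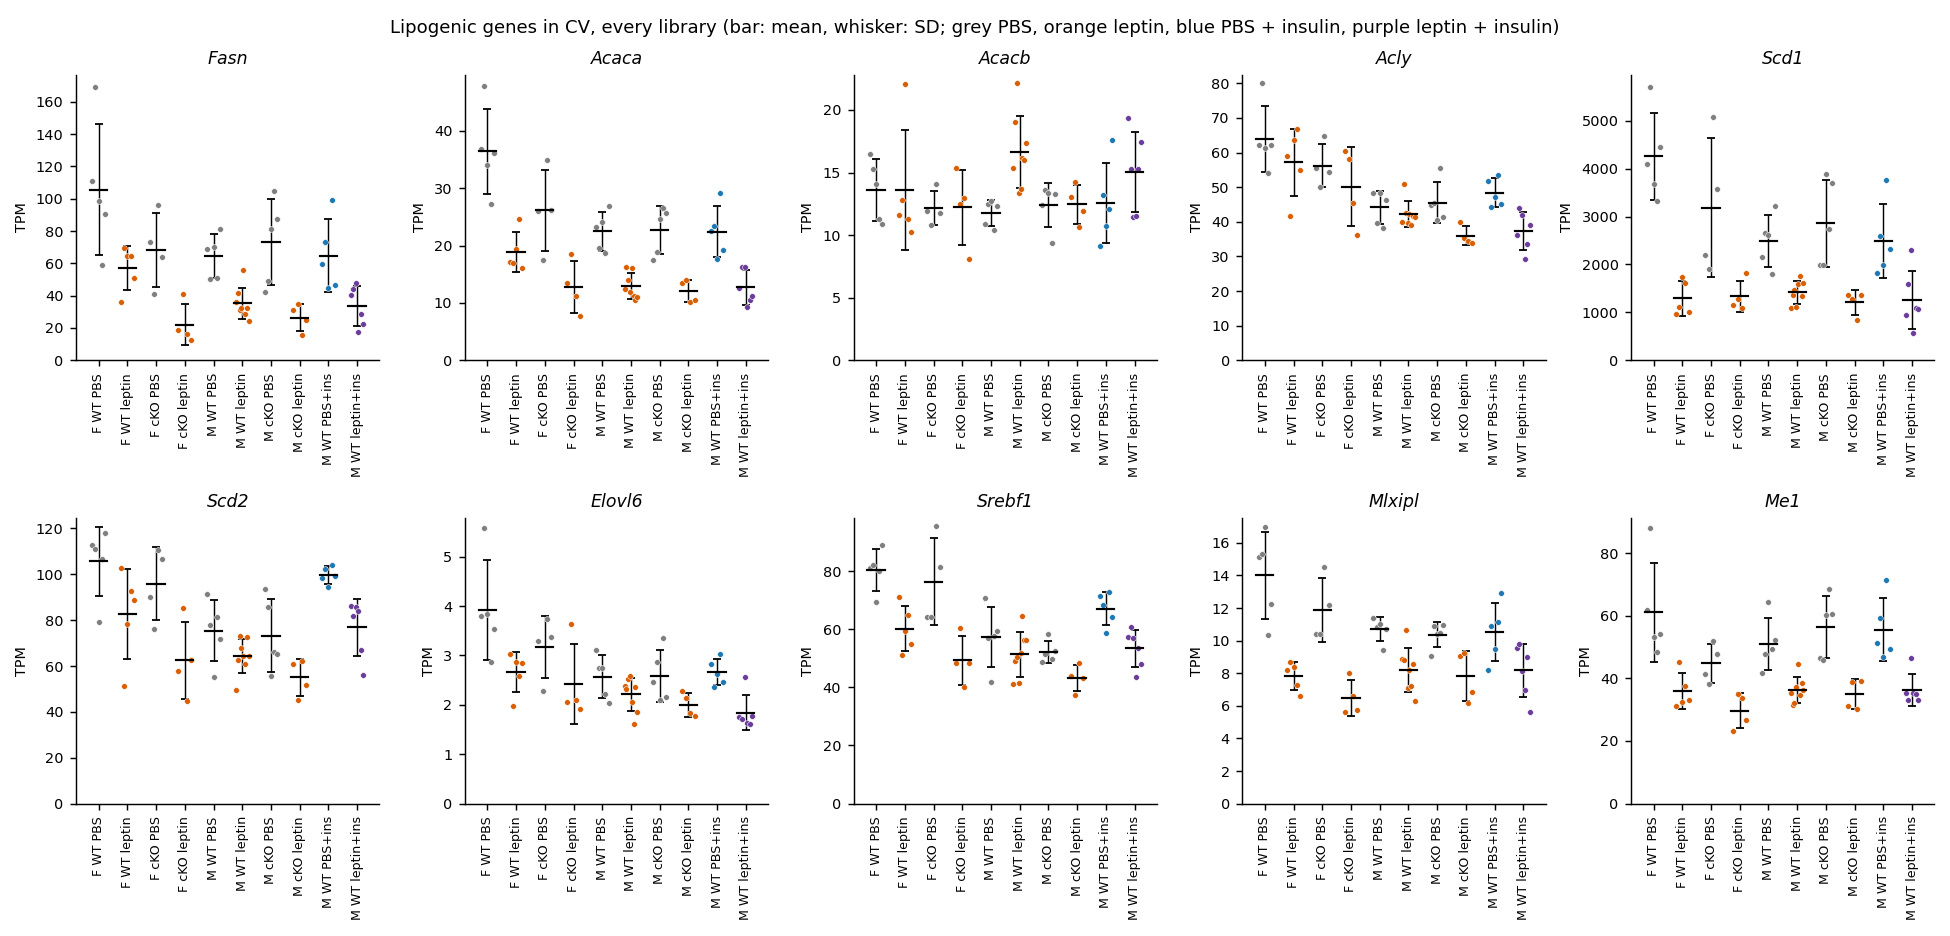
TPM of each of the 10 genes in the 10 CV groups, 1 panel per gene with its own axis from 0, 1 point per library, a bar at the mean and a whisker of 1 SD (grey PBS, orange leptin, blue PBS with insulin, purple leptin with insulin). *Scd1* in female WT CV goes from a mean of 4255 to 1292 TPM, while the *Acly* groups overlap and *Acacb* is higher with leptin in WT males.

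Markers of other cells moved in the same CV libraries. The summed TPM of 10 skeletal muscle markers had medians of 48440 with PBS (23870 to 51450) and 20500 with leptin (18750 to 44010) in WT females, and 54530 (49600 to 61050) and 40290 (26900 to 50280) in WT males. That of 8 erythroid markers went from 1701 (1171 to 3760) to 7100 (2322 to 10770) in females and from 1662 (1227 to 3379) to 5858 (3866 to 10470) in males. That of 8 bone-forming cell markers went from 5275 (2686 to 7012) to 14010 (5688 to 17350) in females and from 2151 (882 to 2308) to 1344 (1214 to 2981) in males. The 10 adipocyte markers together had medians of 9810 (8913 to 12620) and 8780 (5295 to 10150) in females and 8119 (6273 to 10540) and 7287 (5930 to 8991) in males, and none of these markers was at 0 in a CV group. Of the 10 adipocyte markers 4 were called lower in females (2.25% of all genes were), and 4 lower (0.914%) and 1 higher (0.834%) in males. The remaining markers were not called. Those named next had the largest changes among markers called lower in both sexes, so the marker that rose is not among them. On the log2 scale *Lep*, the leptin gene, fell by 5.96 in females and 8.05 in males. *Plin1*, which coats lipid droplets, fell by 1.37 and 1.23, and *Lipe*, hormone-sensitive lipase, by 0.98 and 0.88. The part of these shifts in the lipogenic differences was not tested beyond a fit with a score of the muscle markers as a covariate. That fit called 5 members in females, with *Scd2* in the place of *Elovl6*, and 2 in males, where *Fasn* (-0.80) and *Me1* (-0.53) were lost. Of all 14873 genes it called 424 lower in females and 73 in males, beside 335 and 136 without the covariate.

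Within the mouse-number series of the labels, leptin females had 10 of 10 members lower in WT CV in the 100s and 8 of 10 in the 600s. For males these counts were 9 and 8. Each series held 2 to 5 libraries per group, and the share of all genes lower within a series is not given here. *Scd1* differed by -2.09 and -1.44 in the female series, and the male series gave -0.91 and -0.62. For *Acaca* the female series gave -1.20 and -0.67 and the male ones -0.66 and -1.03. For *Fasn* they gave -1.29 and -0.29, and -0.70 and -1.19.

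Leptin left the pathway's carboxylase pair in another proportion. The ratio of *Acaca* to *Acacb* TPM in male WT CV was 1.56 to 2.19 with PBS and 0.633 to 1.18 with leptin, without overlap, and its means were 1.91 and 0.793. In female WT CV it averaged 2.70 and 1.48, in female cKO CV 2.13 and 1.05, and in male cKO CV 1.88 and 0.964. In iWAT it averaged 8.79 with PBS and 1.70 with leptin (0.725 to 2.48), and in LV 4.64 and 4.96. CV and iWAT had lower means with leptin, and LV did not. The ratio of *Fasn* to *Acly* moved differently between fat and bone, with means of 2.12 with PBS and 4.73 with leptin in iWAT and of 1.61 and 1.04 in female WT CV.

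**Figure D3:**
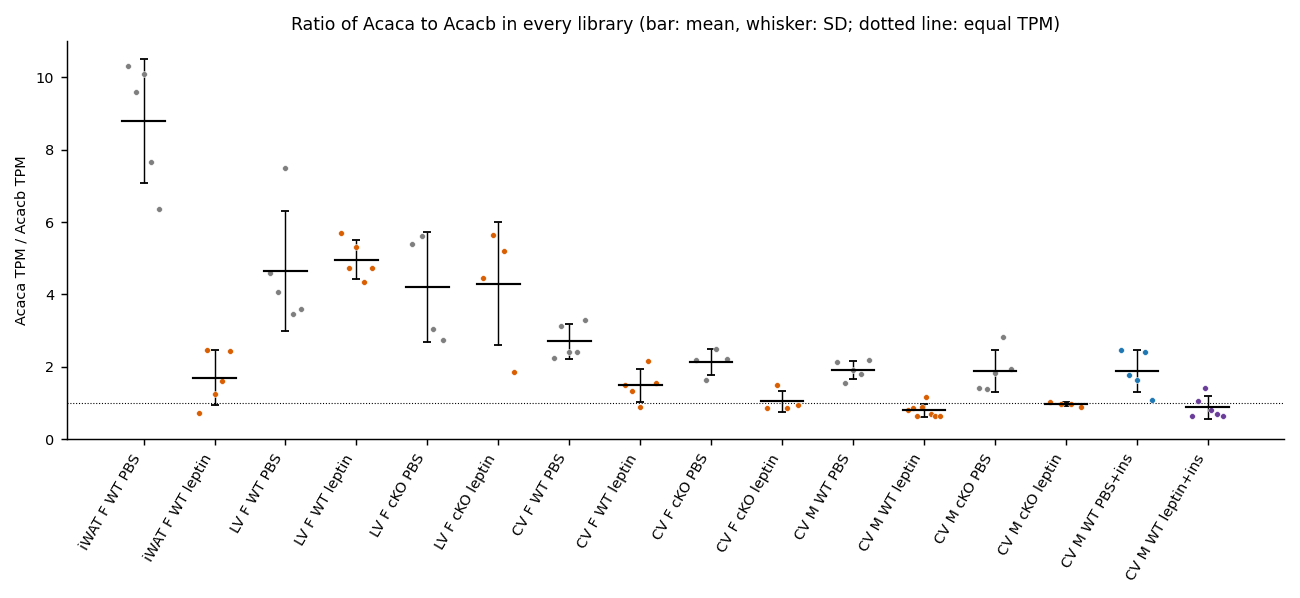
Ratio of *Acaca* to *Acacb* TPM in every library of the 16 groups, with bars at the group means and a dotted line at equal TPM. With leptin the male WT CV libraries averaged 0.793 and the iWAT libraries 1.70, against 1.91 and 8.79 with PBS, and LV groups lie at means of 4.2 to 4.96.

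In cKO mice, whose bone marrow adipocytes lacked ATGL, the same genes stood lower with leptin but with 4 PBS and 4 leptin females and 5 PBS and 4 leptin males none was called. Over all genes 0.0269% were called in female and 0.188% in male cKO CV. At an unadjusted p under 0.05 there were 7 members in each sex (11.6% and 9.66% of genes). DESeq2 called 5 members in females and 3 in males, among 219 of 14840 and 212 of 14837 genes. In 1 fit of all CV libraries 6 and 3 members were called, among 507 and 44 of 14873 genes. Summed adipocyte markers in cKO females had medians of 8004 TPM (6877 to 10770) with PBS and 5843 (5581 to 7513) with leptin. In cKO males they were 9940 (6677 to 10700) and 7672 (6054 to 7838). Erythroid markers went from a median of 1416 to 2308 TPM in cKO females and from 2153 to 6831 in cKO males. The part of these shifts in the cKO differences was not tested. *Fasn* in cKO females was 72.9, 40.8, 96.3 and 64.0 TPM with PBS and 19.0, 41.0, 16.1 and 12.5 TPM with leptin, where leptin replicate 2 alone reached the PBS range (log2 fold change -1.58 ± 0.326 SE, edgeR adjusted p = 0.161). Without that library *Fasn* was called at -1.97. In cKO males it was 42.5, 49.0, 81.5, 105 and 87.6 TPM with PBS and 31.0, 34.6, 15.6 and 24.6 TPM with leptin, without overlap (log2 fold change -1.47 ± 0.349 SE, edgeR adjusted p = 0.122).

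Within series, *Fasn* in cKO males differed by -0.56 in the 100s (2 PBS libraries and 1 leptin library) and by -1.39 in the 5400s (3 and 1), and with the series as covariate it was at -0.94. In cKO females it differed by -1.23 in the 100s (2 and 3) and by -2.94 in the 5400s (1 and 1). Mice of the 5400s were all cKO, and the cKO PBS and leptin groups held unequal shares of the series (2 of the 4 leptin males but no PBS male were of the 600s), so series and genotype cannot be fully told apart.

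*Acaca* in cKO CV was 26.1, 17.5, 34.9 and 26.1 TPM with PBS and 13.4, 18.6, 11.3 and 7.65 TPM with leptin in females (log2 fold change -0.97), and 17.5, 18.9, 24.6, 26.5 and 25.8 TPM and 13.4, 13.98, 10.2 and 10.6 TPM in males (-0.89). The females overlapped at 1 leptin library and the males did not overlap. *Scd1* was 2190.3, 1907, 5079.6 and 3576 TPM and 1153, 1284, 1083 and 1814 TPM in females (log2 fold change -1.12 ± 0.339 SE, edgeR adjusted p = 0.321), and 1991, 1986, 3893, 2743 and 3697 TPM and 1366, 1276, 832 and 1355 TPM in males (log2 fold change -1.24 ± 0.311 SE, edgeR adjusted p = 0.143). Neither sex overlapped. In all, 4 members in females and 6 in males had every leptin library below every PBS library, beside 3.62% and 1.82% of genes. Counted over both sexes and genotypes and the insulin males, 5 comparisons that share no mice, 9 of the 10 members had a log2 fold change below 0 with leptin in every one, beside 14.4% of all genes. The exception was *Acacb*, which in cKO CV was 12.2 and 12.2 TPM in females and 12.4 and 12.5 TPM in males.

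The edgeR test of whether the response differed between cKO and WT, groups that differ in series too, called no member and 0.0% of all genes in either sex (6.09% of genes in females and 2.64% in males were at an unadjusted p under 0.05, as were 0 and 1 of the members, and DESeq2 called no member). For *Fasn* that difference was -0.70 ± 0.452 SE on the log2 scale (edgeR adjusted p = 0.862) in females and -0.56 ± 0.374 SE on the log2 scale (edgeR adjusted p = 1.00) in males, and for *Scd1* 0.61 ± 0.381 SE on the log2 scale (edgeR adjusted p = 0.854) and -0.40 ± 0.327 SE on the log2 scale (edgeR adjusted p = 1.00). With PBS alone, edgeR and DESeq2 called no member between cKO and WT CV (edgeR called 0.0% of all genes in either sex). At an unadjusted p under 0.05 there were 2 members in females (5.67% of genes) and 0 in males (4.79%). In females all 10 log2 fold changes were below 0, with a median of -0.30, and *Fasn* was at -0.67. In males the median was 0.07. The share of all genes below 0 is not given here. Summed adipocyte markers with PBS had medians of 8004 TPM in cKO and 9810 in WT females, and of 9940 and 8119 in males. Their part in these differences was not tested. In LV no member was called between the genotypes (edgeR called 0.00672% of all genes) or was at an unadjusted p under 0.05 (2.86%), and DESeq2 called no member.

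No lipogenic gene was called between leptin males with and without an insulin pellet in WT CV. *Fasn* was 59.4, 73.2, 44.8, 99.4 and 46.4 TPM in PBS males with a pellet, and in leptin males with a pellet 17.5 at the lowest, 34.5 at the median and 47.6 TPM at the highest. These libraries lay where those without a pellet lay, at means of 64.7 and 33.5 TPM with the pellet and 64.4 and 35.3 TPM without it. *Acaca* was 22.6, 23.5, 17.6, 29.2 and 19.2 TPM in PBS males with a pellet, and in leptin males with a pellet 9.29 at the lowest, 11.9 at the median and 16.3 TPM at the highest. Its groups did not overlap. *Scd1* was 1817, 2601, 1989.7, 3771 and 2321 TPM in PBS males with a pellet, and in leptin males with a pellet 571 at the lowest, 1084 at the median and 2310.0 TPM at the highest. Leptin replicate 3 of the pellet group was at 2310 TPM, inside the PBS range.

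Leptin against PBS, both with insulin, called 2 of 10 members lower, *Acaca* (log2 fold change -0.78 ± 0.134 SE, edgeR adjusted p = 0.00918) and *Me1* (log2 fold change -0.57 ± 0.124 SE, edgeR adjusted p = 0.0288), as 0.417% of all genes were. All 10 members were at an unadjusted p under 0.05 (15.5% of genes). *Fasn* (log2 fold change -0.92 ± 0.231 SE, edgeR adjusted p = 0.0542) and *Scd1* (log2 fold change -0.95 ± 0.241 SE, edgeR adjusted p = 0.0566) missed the threshold. For 4 members, *Acaca*, *Acly*, *Scd2* and *Me1*, the groups did not overlap (2.29% of genes). The 5 PBS pellet mice were of the 300s, while 3 of the 6 leptin pellet mice were of the 400s. With the mice of the 300s alone both calls were lost (*Acaca* -0.58, edgeR adjusted p = 0.317; *Me1* -0.55, edgeR adjusted p = 0.380) and *Fasn* was at -0.56. DESeq2 called *Fasn* (adjusted p = 0.00752) and *Scd1* (adjusted p = 0.00641) as well, and limma *Scd1*. Summed erythroid markers were at 657 to 2653 TPM with PBS and 2969 to 8051 TPM with leptin in the pellet mice, and bone-forming cell markers at 2484 to 3679 and 1345 to 2271 TPM. Neither overlapped, and their part in these differences was not tested. Which members passed also depended on single libraries. Without pellet leptin replicate 3, *Fasn* (-1.04), *Scd1* (-1.21) and *Elovl6* (-0.59) were called too. *Fasn* was also called without pellet leptin replicate 2 (-0.99), or without leptin replicate 5 or 8, and *Scd1* without leptin replicate 6, whose libraries enter the shared spread only. *Me1* was lost without any 1 of pellet leptin replicates 1, 5 and 6 and pellet PBS replicates 1, 2 and 4 (-0.59 to -0.47).

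Between leptin with and without insulin no member was called, and 0.363% of all genes were. The 10 log2 fold changes ran from -0.26 to 0.26 with edgeR adjusted p of 0.161 to 0.994, 3 members were at an unadjusted p under 0.05 (16.6% of genes), and DESeq2 called no member. *Fasn* changed by -0.08 ± 0.207 SE on the log2 scale (edgeR adjusted p = 0.884), *Acaca* by -0.03 ± 0.120 SE on the log2 scale (edgeR adjusted p = 0.937), *Scd1* by -0.19 ± 0.216 SE on the log2 scale (edgeR adjusted p = 0.7098) and *Me1* by 0.00 ± 0.111 SE on the log2 scale (edgeR adjusted p = 0.994). Set against the leptin difference in the same fit, insulin moved *Fasn* by -9.14%, *Acaca* by -3.30%, *Scd1* by -22.3% and *Me1* by 0.544% of the way back, a negative share meaning further from PBS. When the insulin mice were limited to the 300s of the mouse-number series, *Fasn*, *Acaca* and *Scd1* with leptin and insulin stood above leptin alone by 0.27, 0.17 and 0.12, and none was called.

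Against PBS males without a pellet, leptin with insulin had 5 of 10 members lower (0.706% of all genes), *Scd1* (-1.04), *Fasn* (-1.0), *Acaca* (-0.87), *Me1* (-0.54) and *Elovl6* (-0.52), with edgeR adjusted p of 0.00264 to 0.0338. *Fasn* and *Acaca* did not overlap (0.968% of genes). With the insulin mice of the 300s alone none of the 5 calls was made (*Acaca* -0.68, edgeR adjusted p = 0.0657, and *Fasn* -0.65, edgeR adjusted p = 0.283). With all mice, the *Acaca* call held in each of the 24 omissions of 1 library. *Elovl6* (-0.33) and *Me1* (-0.47) were lost by limma. *Fasn* was lost too without PBS replicate 1, 3 or 5 or pellet leptin replicate 5 or 6, *Scd1* without PBS replicate 2 or 5 or pellet leptin replicate 1, 5 or 6, and *Me1* without PBS replicate 3 or 5 or pellet leptin replicate 2, 5 or 6, the values running from -0.99 to -0.90, -1.02 to -0.93 and -0.54 to -0.46. *Elovl6* was lost without PBS replicate 1, 2 or 3 or pellet leptin replicate 1, 2, 5 or 6 (-0.51 to -0.46). The pellet mice alone had numbers from the 300s or 400s, so insulin and series cannot be told apart.

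Insulin without leptin called no member (edgeR, 0.0% of all genes). At an unadjusted p under 0.05 there was 1 (6.56% of genes), and DESeq2 called no member. *Scd2* was 98.5, 102, 94.3, 104 and 99.2 TPM in PBS males with a pellet and 91.4, 77.7, 55.0, 81.3 and 72.0 TPM in PBS males without one. Every pellet value was higher, as for 4.27% of genes (log2 fold change 0.31 ± 0.128 SE, edgeR adjusted p = 0.712). The other 9 members lay between -0.10 and 0.13. No member passed the interaction of insulin with leptin in edgeR (0.0% of all genes did) or DESeq2, and 1 was at an unadjusted p under 0.05 (9.31% of genes). These comparisons share their PBS and leptin mice.

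**Figure D4:**
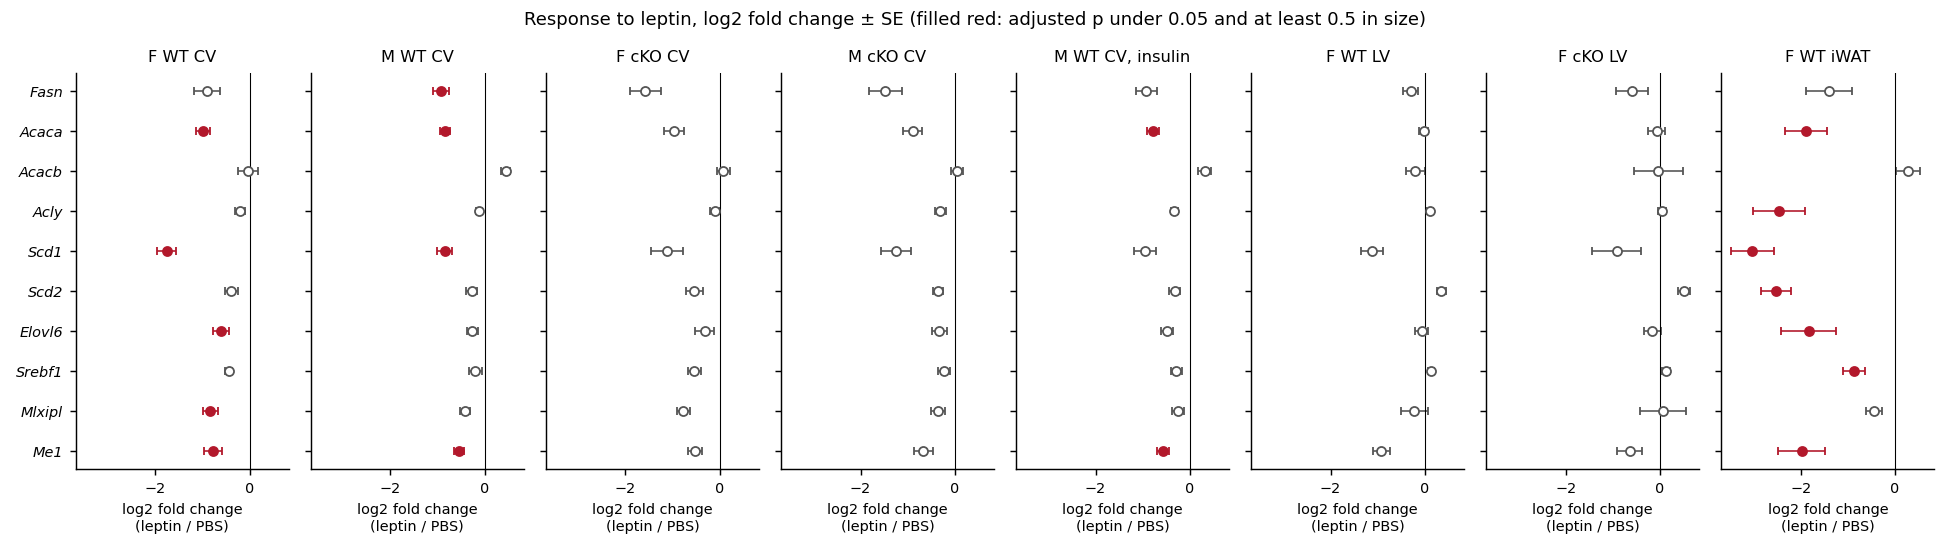
Log2 fold change (leptin against PBS) with its SE for each of the 10 genes in 8 comparisons, filled red where the gene was called. In 1 comparison both groups carried an insulin pellet. Red points are on the negative side throughout, as in female WT CV for *Scd1* (-1.76) and *Acaca* (-0.98). The points for leptin against PBS, both with insulin, lie between -0.95 and 0.31.

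In iWAT of WT females leptin lowered 7 of the 10 genes, against 7.87% of all genes called lower, with a median of -1.86 for the 10 and 0.07 for all genes. *Scd1* was 20007, 17009.9, 14801, 22337 and 24302 TPM with PBS and 517, 2824, 1774, 2796 and 3276 TPM with leptin, which left 11.4% (log2 fold change -3.03 ± 0.453 SE, edgeR adjusted p = 0.00124). *Scd2* was 267, 385, 205, 113 and 119 TPM with PBS and 33.3, 35.2, 35.1, 35.2 and 38.9 TPM with leptin (log2 fold change -2.53 ± 0.321 SE, edgeR adjusted p = 0.000508). For both desaturases the groups were far apart, and the *Scd2* leptin libraries lay within 33.3 to 38.9 TPM.

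*Acly* in iWAT was 1907, 1767, 1507, 1401 and 1177 TPM with PBS and 63.1, 377, 89.4, 189.2 and 588 TPM with leptin (log2 fold change -2.47 ± 0.554 SE, edgeR adjusted p = 0.00933). *Me1* was 2098, 2575, 1657, 1871 and 1664 TPM and 103, 706, 230.0, 399 and 905 TPM (log2 fold change -1.99 ± 0.496 SE, edgeR adjusted p = 0.0151). Neither gene overlapped, and for both the leptin libraries were spread over several fold. *Acaca* was 737, 576, 551, 704 and 725 TPM and 35.9, 243, 110.1, 151 and 283 TPM (log2 fold change -1.90 ± 0.445 SE, edgeR adjusted p = 0.0113), whereas *Acacb* averaged 78.5 ± 24.5 TPM (SD, n = 5) and 89.2 ± 24.4 TPM (SD, n = 5) (edgeR adjusted p = 0.467).

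*Fasn* in iWAT was 3520.3, 3159.5, 2957, 3217 and 3173 TPM with PBS and 242, 1806, 604, 866 and 2159.7 TPM with leptin. All leptin values were lower, but the call was missed (log2 fold change -1.40 ± 0.487 SE, edgeR adjusted p = 0.0556). It was made by DESeq2 (-1.42, adjusted p = 0.00610), by limma (-1.88, adjusted p = 0.0233) and without leptin replicate 1 (-1.17), 2 (-1.61) or 5 (-1.78). Leptin replicate 1 was the lowest of its group in all 10 members. *Elovl6* was 432, 327, 282, 327 and 339 TPM and 10.95, 92.0, 41.6, 89.6 and 208 TPM (log2 fold change -1.83 ± 0.583 SE, edgeR adjusted p = 0.0403), and its call was kept only without leptin replicate 1 or 5, the 8 other omissions giving -1.90 to -1.68. *Srebf1* was 244, 264, 189.4, 245 and 232 TPM and 80.5, 193, 81.2, 102 and 146 TPM, overlapping by 1 library (log2 fold change -0.87 ± 0.238 SE, edgeR adjusted p = 0.0219), and was lost without leptin replicate 4 (-0.83, edgeR adjusted p = 0.0551, over a range of 0.00429 to 0.0551 among the omissions). *Mlxipl* was 90.2, 89.6, 78.9, 59.0 and 62.4 TPM and 35.7, 62.5, 58.9, 41.3 and 49.7 TPM, and was not called (log2 fold change -0.45 ± 0.179 SE, edgeR adjusted p = 0.0870), but by limma it was (-0.61, adjusted p = 0.0307).

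In all, 7 members did not overlap in iWAT (14.3% of genes). Summed adipocyte markers there had medians of 69490 (66480 to 85470) with PBS and 80930 (55520 to 94990) with leptin, and 8 erythroid markers 1596 (1405 to 1976) and 389 (148 to 827). Summed muscle markers had medians of 93.5 (36.7 to 3483) and 310 (10.3 to 4635). That of 6 hepatocyte markers went from 1051 (449 to 1660) with PBS to 2499 (2014 to 4422) with leptin, and of these 6 genes *Cyp2e1* alone was called. The erythroid and hepatocyte sums did not overlap between the groups. The part of these markers in the iWAT differences was not tested.

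In LV no member was called by edgeR in WT or cKO females, as 0.0% of all genes tested were in either genotype. In WT females 3 members were at an unadjusted p under 0.05 (14.7% of genes) and DESeq2 called 2, *Scd1* and *Me1*, among 142 of 14835 genes. In cKO females the counts were 2 (8.95% of genes) and 1, *Scd2*, which was higher, among 72 of 14831 genes. *Scd1* in WT LV was 26.9, 43.3, 23.3, 32.1 and 62.3 TPM with PBS and 16.6, 16.3, 15.5, 23.2 and 17.4 TPM with leptin, without overlap (0.975% of genes), and missed the threshold (log2 fold change -1.12 ± 0.237 SE, edgeR adjusted p = 0.0963). *Me1* was 6.12, 7.87, 4.01, 5.36 and 7.90 TPM and 3.53, 2.99, 2.51, 4.68 and 3.29 TPM (log2 fold change -0.92 ± 0.183 SE, edgeR adjusted p = 0.0849), and was called without PBS replicate 3 (-1.06). With the series as covariate *Scd1* (-1.18) and *Me1* (-0.96) were both called, among 78 of 14873 genes. *Scd2* was 20.5, 16.5, 18.5, 14.5 and 17.5 TPM and 25.8, 17.1, 19.2, 29.0 and 23.1 TPM, with overlap (log2 fold change 0.35 ± 0.101 SE, edgeR adjusted p = 0.169). The proportion of the desaturases differed in WT LV, *Scd1* taking 55.7% to 78.1% of their summed TPM with PBS and 39.1% to 48.9% with leptin. In cKO LV these shares overlapped, at 44.6% to 78.5% with PBS and 41.3% to 50.7% with leptin. *Mlxipl* was low in LV, with 46 to 80 counts and a mean of 0.520 TPM in PBS WT females.

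The leptin response was compared between tissues of the same females in 1 fit. The response of *Scd2* was smaller in CV than in iWAT by 2.18 ± 0.359 SE on the log2 scale (edgeR adjusted p = 0.000659) and that of *Acly* by 2.30 ± 0.580 SE on the log2 scale (edgeR adjusted p = 0.0117), the 2 members called among 6.64% of genes with a positive difference. With each mouse as a block, which is the pairing these libraries have, *Scd1* (1.53) and *Me1* (1.62) were called as well. DESeq2 called *Scd1* (1.31) too, and limma *Scd1* (1.62), *Elovl6* (2.05) and *Me1* (1.70). *Fasn*, not called by either, was at 0.98 with the mouse block and 1.06 by limma. Without iWAT leptin replicate 5, *Scd1* (1.49), *Elovl6* (1.88) and *Me1* (1.64) were called, without replicate 1 *Scd1* (1.05), and without replicate 2 *Srebf1* (0.69). *Fasn* (0.53 ± 0.588 SE on the log2 scale (edgeR adjusted p = 0.584)) and *Acaca* (0.95 ± 0.488 SE on the log2 scale (edgeR adjusted p = 0.201)) were not.

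Between CV and LV the responses of *Acaca* (-0.93 ± 0.181 SE on the log2 scale (edgeR adjusted p = 0.00823)), *Scd2* (-0.71 ± 0.181 SE on the log2 scale (edgeR adjusted p = 0.0322)) and *Srebf1* (-0.54 ± 0.102 SE on the log2 scale (edgeR adjusted p = 0.00676)) were called different, CV being the more negative, as for 0.558% of genes. The *Acaca* call held in each of 20 omissions. By limma the *Scd2* (-0.72, adjusted p = 0.123) and *Srebf1* (-0.56, adjusted p = 0.0524) calls were lost. *Scd2* was lost in 9 of 20, without CV PBS replicate 1, 2 or 5, LV PBS replicate 2, 3 or 4 or LV leptin replicate 1, 4 or 5 (-0.71 to -0.65), and *Srebf1* was under the fold limit without LV leptin replicate 4 (-0.50). *Scd1* differed by -0.60 ± 0.327 SE on the log2 scale (edgeR adjusted p = 0.389).

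Females and males given PBS were compared in WT CV. *Scd1* was higher in females, 4255 ± 918 TPM (SD, n = 5) against 2488 ± 541 TPM (SD, n = 5) (log2 fold change 0.53 ± 0.191 SE, edgeR adjusted p = 0.0488), the 1 member called (4.01% of all genes were higher). That call was lost with no filter on low values (adjusted p = 0.0573), in 1 fit of all CV libraries (adjusted p = 0.145) and without any 1 of PBS female replicates 1, 2, 3 and 5, PBS male replicates 1 to 4 and leptin male replicates 2, 3, 5 and 8 (0.39 to 0.58). *Acaca* was higher by 0.46 and *Acly* by 0.29, under the fold limit (edgeR adjusted p = 0.0174 and 0.0206), and by limma *Acaca* (0.66), *Acly* (0.52) and *Fasn* (0.65) were called. *Acaca* also passed the fold limit without female PBS replicate 4 (0.56) or male PBS replicate 3 (0.51) or 5 (0.57). In 3 members every female was above every male, which held for 25.5% of genes.

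Other genes of the pathway were counted in the same way, with no test between tissues or lists. Of 10 genes that supply acetyl-CoA and citrate none was called in WT CV, although all 10 were below 0 in both sexes (median -0.38 in females and -0.21 in males), and 7 fell in iWAT (median -1.10). These were led by *Acss2*, the cytosolic acetyl-CoA synthetase, from 582.9 to 87.7 TPM (log2 fold change -2.63), and *Slc25a10*, the dicarboxylate carrier (-1.83). Of 6 genes of cytosolic NADPH supply none was called in CV, while 4 fell and 1 rose in iWAT. *Pgd* of the pentose phosphate pathway fell there (log2 fold change -2.06) and *Tkt*, transketolase, by 1.59 on the log2 scale. The share of all genes called in iWAT was 15.1%. In WT CV 2.25% of all genes were called lower and 2.78% higher in females, and 0.914% and 0.834% in males. At those shares a list of this size can have no call in CV whatever its genes, so the absence of calls is no result about them. The share of all genes below 0 in both sexes is not given here.

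Among the control genes few were called. Of 6 genes of SREBP processing 1 fell in iWAT, *Insig1*, which retains SREBP in the endoplasmic reticulum (-1.32), and of 8 transcription partners 1, *Cebpa* (-0.88), near the share of all genes called lower there (7.87%). Of 9 regulators of acetyl-CoA carboxylase 2 fell in iWAT, *Mid1ip1* (-1.71), whose product helps carboxylase assemble, and *Thrsp* (log2 fold change -1.29). Of the same 9 genes 1 fell in female WT CV, *Prkaa2*, a catalytic subunit of AMPK (-0.59), where 2.25% of all genes were called lower. *Prkaa2* is named after its value was seen. Among 6 ChREBP target genes *Gpd1*, the glycerol 3-phosphate dehydrogenase, fell in male WT CV from 118.7 to 61.5 TPM (log2 fold change -0.99) and in iWAT (-1.42). None of the genes in the SREBP processing, transcription partner, carboxylase regulator and ChREBP target lists was called higher in CV or iWAT.

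Of 12 further genes of elongation and desaturation none was called in CV, and 2 rose and 2 fell in iWAT, among them *Elovl3*, an elongase of brown fat and skin glands (1.69), and *Hacd1*, a dehydratase of muscle (-1.12). The 5 tested genes of mitochondrial fatty acid synthesis, a separate pathway that makes lipoic acid, had none called in CV and 3 lower in iWAT, with *Mecr* at -1.0 and *Ndufab1* at -0.62. In LV no gene of these lists was called.

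**Figure D5:**
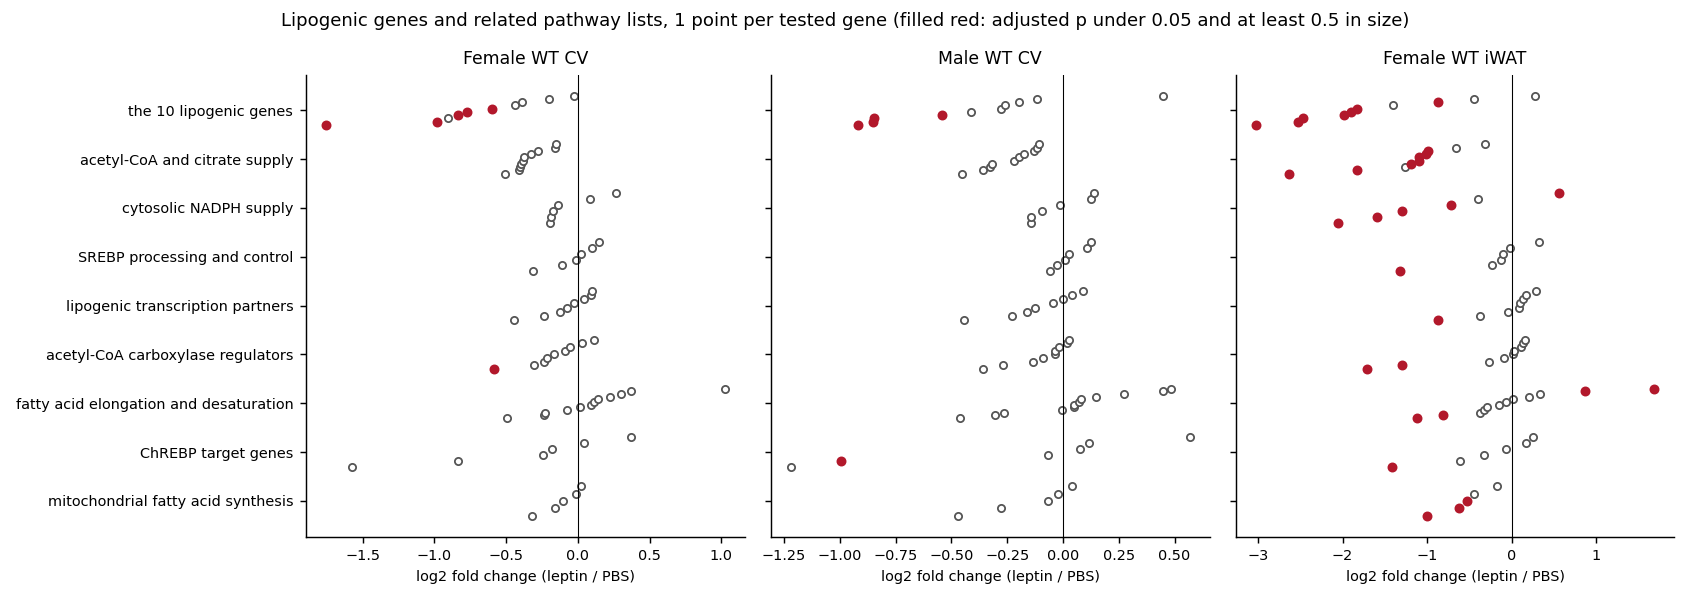
Log2 fold change (leptin against PBS) of every tested gene of the 10 members and of 8 other lists in female WT CV, male WT CV and female WT iWAT, 1 point per gene, with called genes in red. In iWAT 7 of the 10 acetyl-CoA and citrate genes are red and below 0, and in CV none of them is red. Of all genes 7.87% were called lower in iWAT, 2.25% in female WT CV and 0.914% in male WT CV.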

How the data were processed

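RNA was enriched with oligo dT, reverse-transcribed with random N6 primers and sequenced as paired reads on the DNBSEQ platform. Per the methods and the labels, the authors filtered reads with SOAPnuke, aligned them with HISAT and Bowtie2 to GRCm38.p6 and deposited estimated read counts and TPM values per gene. Versions, the counting tool and its strand setting are not given in the sources used here, and the submitters' notes list GRCm39 beside GRCm38.p6. In the deposited expected counts 51 values of 6 genes were not whole and were rounded.

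The 14873 genes whose mean reached 0.4 TPM were tested with edgeR 4.0.16 in R 4.3.3, by glmQLFit and glmQLFTest with TMM factors and the Benjamini-Hochberg adjustment. A call needed an adjusted p under 0.05 and a log2 fold change of 0.5 or more in size. The 24 comparisons were fitted within their own tissue, sex or genotype groups, insulin, tissue, genotype and sex ones in joint fits with interaction terms. Alternatives were DESeq2 1.42.0, limma 3.58.1 on log2(TPM + 1), other size factors, no filter, a replicate block, a series or muscle covariate, 1 fit of all CV libraries, and omission of each library. Scripts were tested on simulated data.

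No leptin comparison had every same-numbered pair of libraries correlated above 0.1, so numbers were not taken as pairs. Tissue comparisons share mice, and their mouse block is given where it changes a call. The closest of 163 library pairs within a group had a chi-square of 11.2 per gene, so no library was a copy of another in its own group. Pairs from different groups were not compared. The 10 members and the 17 other gene lists were chosen with earlier results of these data known. Outside the members, list genes are named where called the same way in both sexes in WT CV (at most 3 a list) or in iWAT (at most 2 a list), by size of change. Promoter windows are from RefSeq (8 of 10 members matched). The authors' filter for adipocyte-expressed genes was not used here.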

Additional observations from a re-analysis of the deposited data

Results flagged for a closer look

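Among 160 group-by-gene sets of TPM values, 11 held a library far from the rest of its group by Dixon's test at 95%, where chance gives about 1 in 20. *Acacb* accounted for 3 of them. It stood at 22.1 TPM in leptin replicate 3 of female WT CV (others 10.3 to 12.8), at 1.82 in leptin replicate 4 of female cKO LV (others 0.55 to 0.71) and at 9.39 in PBS replicate 4 of male cKO CV (others 12.4 to 13.6). Leptin replicate 3 of the male WT insulin group stood apart for *Elovl6* (2.56 TPM, others 1.61 to 1.77) and *Me1* (46.6, others 33.0 to 35.3), and it was also the highest of that group for *Scd1*.

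*Scd1* was at 23.2 TPM in leptin replicate 4 of female WT LV (others 15.5 to 17.4) and at 832 in leptin replicate 3 of male cKO CV (others 1276 to 1366). *Scd2* was at 79.3 TPM in PBS replicate 3 of female WT CV (others 107 to 118). *Acly* was at 51 TPM in leptin replicate 2 of male WT CV (others 39.1 to 42.5), *Elovl6* at 3.63 in leptin replicate 2 of female cKO CV (others 1.91 to 2.09) and *Mlxipl* at 9.05 in PBS replicate 1 of male cKO CV (others 10.4 to 10.9).

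Leptin responses that differed between tissues of the same females by the interaction test were those of *Scd2* (2.18) and *Acly* (2.30) between CV and iWAT, and those of *Scd2* (-0.711), *Srebf1* (-0.543) and *Acaca* (-0.927) between CV and LV, all on the log2 scale as the CV response minus the other. No explanation of these values was tested.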

How the results depend on the processing

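Of the single-gene results, 858 kept their direction and side of the threshold under the alternatives that kept all libraries, 42 gained and 24 lost the call and 12 changed sign. With 1 library left out these numbers were 2255, 22, 75 and 28. The number of members called stayed within 1.5 times in 129 of the former and 379 of the latter.

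By DESeq2 the number of members called was 5 in female cKO CV, 3 in male cKO CV, 2 in WT LV, 1 in cKO LV and 4 for leptin against PBS with insulin. With 1 fit of all CV libraries it was 6 in cKO females, 3 in cKO males and 0 between the sexes. With the muscle score it was 2 in male WT CV and 1 in male cKO CV, and with the series as covariate 2 in WT LV. By limma it was 3 for leptin with insulin against PBS, 5 between CV and iWAT and 4 between the sexes, where no filter gave 0. With the replicate block it was 3 for leptin with insulin against PBS, and with the mouse block 4 between CV and iWAT, and the block moved no other member count beyond 1.5 times. The replicate block also made the call of *Fasn* in iWAT (-1.76) and ended those of *Elovl6* in female and *Me1* in male WT CV (-0.56 and -0.58). With insulin mice of the 300s alone it was 0 for leptin with insulin against either PBS group. Leaving out 1 library gave 3 to 6 members in female and 3 to 4 in male WT CV, 0 to 1 in female cKO CV and WT LV, 5 to 8 in iWAT, 1 to 5 for leptin with insulin against either PBS group, 2 to 5 between CV and iWAT, 1 to 3 between CV and LV and 0 to 2 between the sexes.

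The sign changed for *Acacb* in female WT CV with the series (0.0451) or the muscle score (0.22) and in female cKO CV by limma (-0.0192). For leptin with insulin against leptin it changed for *Fasn* (0.27), *Acaca* (0.17) and *Scd1* (0.12) with the 300s alone and for *Mlxipl* by limma (-0.0104). For leptin with insulin against PBS it changed for *Scd2* by limma (0.0279), with the replicate block (0.0113) and with the 300s (0.0634). Between CV and LV it changed for *Acly* (0.87) and *Elovl6* (0.63) by limma on TPM, which does not centre all genes. With 1 library left out, *Acacb* ran from -0.216 to 0.0717 in female WT CV, -0.00838 to 0.197 in cKO females and -0.0670 to 0.105 in cKO males, *Fasn* from -0.204 to 0.043, *Acaca* from -0.102 to 0.0272 and *Me1* from -0.0658 to 0.0528 for leptin with insulin against leptin, and *Scd2* from -0.118 to 0.0621 for leptin with insulin against PBS.

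Over all genes, DESeq2 called 465 in male WT CV (edgeR 260), 219 in female cKO CV (4), 212 in male cKO CV (28), 142 in WT LV and 72 in cKO LV (0 each), and 230, 174 and 269 in the 3 comparisons of leptin with insulin (83, 54 and 164). The replicate block called 65 in male WT CV, 13 in cKO females, 14 in cKO males and 48 for the sex difference in response (0). One fit of all CV libraries called 418 in male WT CV, 507 in cKO females and 44 in cKO males. The series covariate called 416 in male WT CV, 13 in male cKO CV and 78 in WT LV, the muscle score 156 in male WT CV and 66 in male cKO CV, limma 16 and 97 against leptin and against PBS for leptin with insulin, and the 300s alone 3, 7 and 26. Where no or 1 gene was called by edgeR, the remaining alternatives called at most 28. The cause of these differences was not tested. The series covariate in cKO mice and between sexes and the limit to the 300s were chosen after seeing the data. *Elovl6* in CV and *Mlxipl* and *Acacb* in LV rest on the fewest counts.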

Other observations

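Over the means of the 10 CV groups, the genes whose log2(TPM + 1) level was most like that of *Fasn* among 10744 genes were *Acaca* (Pearson r = 0.956), *Nsdhl* (0.950), a sterol-synthesis enzyme, *Retn* (0.948), the adipocyte hormone resistin, *Ift122* (0.943) and *Cyb5b* (0.942). The other members ranked from 33 for *Mlxipl* and 42 for *Me1* to 96 for *Scd1*, 200 for *Scd2*, 260 for *Srebf1* and 964 for *Acly*, with *Elovl6* below the level needed for the ranking. *Acacb* ranked 8863, with r = -0.178. The genes most like *Srebf1* were *Podxl* (0.994), *Ccser2* (0.992), *Mycbp2* (0.989), *Ormdl3* and *D5Ertd579e*, with *Scd2* at rank 28 and *Fasn* at rank 1086. These are descriptions over 10 group means that share tissue and sequencing depth, with no test.

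*Acaca* and *Acacb* encode carboxylases of the same reaction and the log2 fold change of *Acaca* was the more negative in each WT sex and in iWAT, a difference between genes that was not tested. In iWAT the *Scd2* leptin libraries were close together (35.5 ± 2.08 TPM, SD, n = 5) while the *Acly*, *Me1* and *Fasn* leptin libraries of the same mice were spread over several fold.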
